A study of Homo sapiens with 10 samples.

Results

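The genes described here are 10 members of the network that switches cell-cycle transcription on and off: the activator E2Fs *E2F1*, *E2F2* and *E2F3*, the atypical repressor E2Fs *E2F7* and *E2F8*, the pocket proteins *RB1*, *RBL1* (p107) and *RBL2* (p130), and the late-cycle transcription factors *MYBL2* (B-MYB) and *FOXM1*. They were taken by symbol from a table of 36687 gene symbols, where each of the 10 was present once and passed the filter on low counts, which left 15727 genes for testing. In dividing cells, activator E2Fs bound to a DP partner turn on genes for DNA replication in late G1, and hypophosphorylated pocket proteins hold E2Fs in check until cyclin-dependent kinases phosphorylate them. The pocket protein RBL2 (or RBL1), a repressor E2F and the MuvB core form the DREAM complex of quiescent cells, whereas in S and G2 phase the same MuvB core joins MYBL2 and then FOXM1 to turn on mitotic genes. *E2F7* and *E2F8* are themselves E2F targets and close the loop by repressing G1/S genes.

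RNA was sequenced from the human line MDA-MB-231, established from a triple-negative breast cancer and mesenchymal (basal B) in type, left as a sham control (called 0 h) or exposed to dasatinib, an inhibitor of SRC-family and ABL kinases, for 6, 12, 24 or 48 h, with 2 libraries at each of the 5 times. The dose, which the labels do not give, was 100 nM, and their treatment field names dasatinib for the sham libraries as well as the treated ones. No untreated cells were sampled at the later times, so that a difference from 0 h holds both the drug and the time in culture, which cannot be told apart. Nothing in the labels says that the 2 replicates were separate cultures, and p-values then measure the spread between these libraries, which may be technical. Since RNA came from whole cultures, fewer cells in a cell-cycle phase and less mRNA per cell cannot be told apart either.

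Depth was close to even, with between 40942913 and 49133774 reads counted to genes per library. The cells carried the markers of the line, with *VIM* between 633 and 913 TPM (the deposited transcript level, scaled for gene length and library size), 0 counts of *PGR* and *CD3E*, and at most 25 counts of *ESR1* and 10 of *CDH1* in any library. Other epithelial markers were expressed, among them *KRT18* (235 to 341 TPM), *KRT8* (164 to 270), *KRT19* (150 to 262), *SPDEF* (14.5 to 95.3) and *ERBB2* (18.4 to 23.9). Of the stromal markers, *COL1A1* had 384 to 715 counts and *PECAM1* 49 to 353. The first 12 h library stood apart. Its best correlation with any other library over log2 CPM (counts scaled to library size) was 0.955, against 0.983 to 0.987 for the other 9. The gap between the 12 h replicates (replicate 1 minus replicate 2, log2 CPM) was 0.76 for *RBL1*, 0.59 for *RB1* and 0.56 for *RBL2*, but -0.05 for *MYBL2* and -0.16 for *E2F1*, while the median absolute gap of all tested genes was 0.466. Member results that rest on the 12 h libraries are given with and without them.

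In GRCh38 (GENCODE v44), *E2F1* lies at chr20:33675477-33686385 on the minus strand, *MYBL2* at chr20:43667019-43716495 on the plus strand and *RBL1* at chr20:36996349-37095997 on the minus strand. *E2F2* (chr1:23506438-23531233), *E2F7* (chr12:77021248-77065569), *E2F8* (chr11:19224063-19241620) and *FOXM1* (chr12:2857680-2877174) are on the minus strand. *E2F3* (chr6:20401879-20493714), *RB1* (chr13:48303744-48599436) and *RBL2* (chr16:53433977-53491648) are on the plus strand. Counts were made over exons of the whole gene. *RBL2* shares 609 exonic bases with *AKTIP* on the opposite strand, a gene with between 1138 and 1658 counts per library, and *FOXM1* shares 782 with *ITFG2*, which had between 491 and 755 counts. Opposite-strand genes that were not among the counted symbols also share 721 exonic bases with *RBL2*, 213 with *RBL1* and 7 with *E2F8*. Whether the counting used strand is not stated, so reads in those shared bases cannot be assigned with certainty.

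Genes of this network are known to regulate one another, and the start regions of the members are shown for that reason. RefSeq promoter windows (GRCh38.p14) were matched for 8 of the 10 genes, *E2F8* and *FOXM1* not being among them. The 250 bases before each start were searched on both strands for the E2F words TTTCCCGC, TTTCGCGC, TTTGCCGC and TTTGGCGC, which can overlap each other only on opposite strands. A word was found in 4 of the 8 (50.0%), against 645 of 12160 tested genes with a window (5.304%) and 979 of all 35116 windows (2.788%). The 100 bases before the start of those 4 are printed 5′ to 3′ on the gene's own strand, with each E2F word in capitals, reverse complements included. They lie at chr20:33686386-33686485 (*E2F1*, minus strand), chr1:23531234-23531333 (*E2F2*, minus strand), chr6:20401779-20401878 (*E2F3*, plus strand) and chr20:37095998-37096097 (*RBL1*, minus strand).

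E2F1: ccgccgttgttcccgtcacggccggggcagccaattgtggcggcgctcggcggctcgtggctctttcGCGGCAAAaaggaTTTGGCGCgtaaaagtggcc
E2F2: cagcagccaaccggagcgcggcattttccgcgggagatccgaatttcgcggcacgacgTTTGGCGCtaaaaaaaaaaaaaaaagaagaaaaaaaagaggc
E2F3: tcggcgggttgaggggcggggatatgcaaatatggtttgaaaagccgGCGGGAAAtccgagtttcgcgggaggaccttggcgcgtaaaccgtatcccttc
RBL1: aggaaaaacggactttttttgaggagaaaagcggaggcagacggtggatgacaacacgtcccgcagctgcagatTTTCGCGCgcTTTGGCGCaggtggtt

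*E2F1* and *RBL1* each held a pair of words within the last 33 bases before the start, *E2F2* held 1 and *E2F3* held 1. The windows of *E2F7*, *MYBL2*, *RBL2* and *RB1* held none of these exact words. Those of *RB1*, *MYBL2* and *RBL2* belong to starts inside the annotated genes. Letters close to these words but not identical were not searched for, so a window without a word may still hold an E2F site. A match is a description of the letters and not evidence of binding.

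Expression at 0 h spanned a wide range. On the TPM scale, *MYBL2* was highest, with 312 and 323 TPM in the 2 libraries, followed by *FOXM1* (179 and 178), *E2F1* (108 and 112), *RB1* (82.2 and 81.5), *E2F7* (80.8 and 82.1) and *E2F3* (65.0 and 68.9). *E2F8* (34.4 and 35.1), *RBL1* (31.4 and 27.4), *RBL2* (15.0 and 13.3) and *E2F2* (11.7 and 14.3) were lower. *RB1* and *E2F7* overlapped, as did *RBL2* and *E2F2*, and no other neighbours in this order overlapped. By 48 h *MYBL2* was still the highest, at 95.3 and 94.6 TPM. *RB1* (70.2 and 71.5) had moved to the next place, ahead of *E2F7*, *FOXM1* and *E2F1*, whose libraries between 55.3 and 66.4 TPM overlapped, and *RBL2* (25.5 and 27.3) stood above *RBL1* (16.8 and 16.5).

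**Figure D1:**
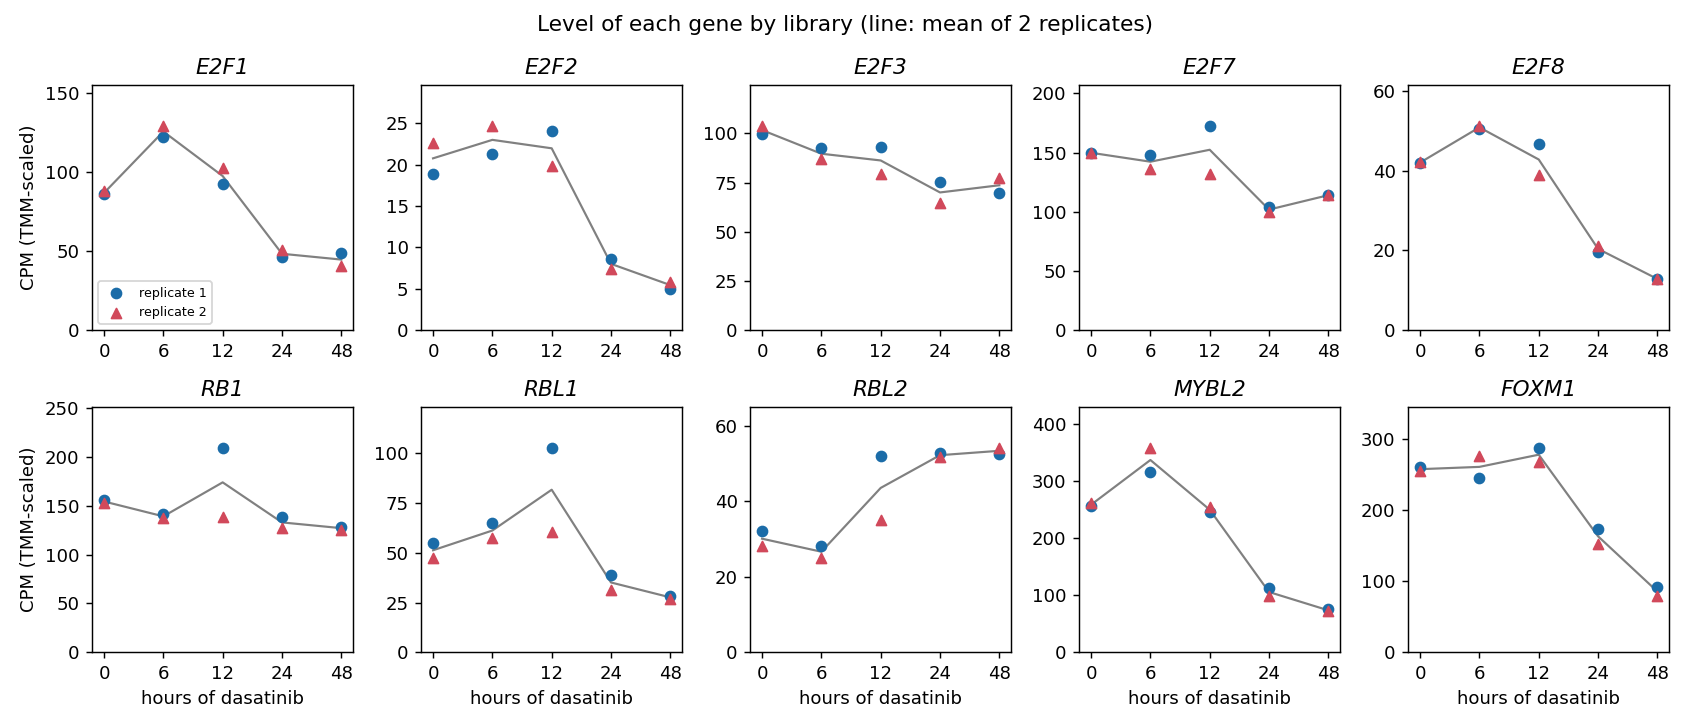
CPM (counts scaled to library size with TMM factors) of each of the 10 genes against hours of dasatinib, with 1 point per library, the marker showing the replicate, and a line through the mean of the 2. *MYBL2* went from 256 and 261 CPM at 0 h to 75.1 and 71.6 at 48 h, *RBL2* went the other way, and the first 12 h library is high for the 3 pocket proteins.

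To describe the time course, every time was compared with 0 h by edgeR's quasi-likelihood test on the deposited counts, with 1 fit over all 10 libraries and Benjamini-Hochberg adjustment over all 15727 genes within a comparison. A gene is said to have risen or fallen where the adjusted p was under 0.05, and changes are log2 fold changes ± SE, later minus earlier. At 6 h no member passed this test, whereas 2.73% of all genes did (1.24% higher and 1.49% lower), and at 12 h none passed against 7.15% of all genes (3.93% higher and 3.22% lower). At 24 h, 7 members had fallen and 1 had risen (8 of 10, against 20.0% of all genes, 10.2% lower and 9.73% higher). At 48 h, 8 had fallen and 1 had risen, against 32.3% of all genes (16.3% lower and 16.0% higher). The median change of the members was 0.0826, 0.0956, -0.608 and -0.927 at 6, 12, 24 and 48 h, while the median of all tested genes stayed between 0.000694 and 0.0212. Separation of the libraries of a time from those of 0 h was not counted over all genes. It is therefore described below by member and not as a count.

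**Figure D2:**
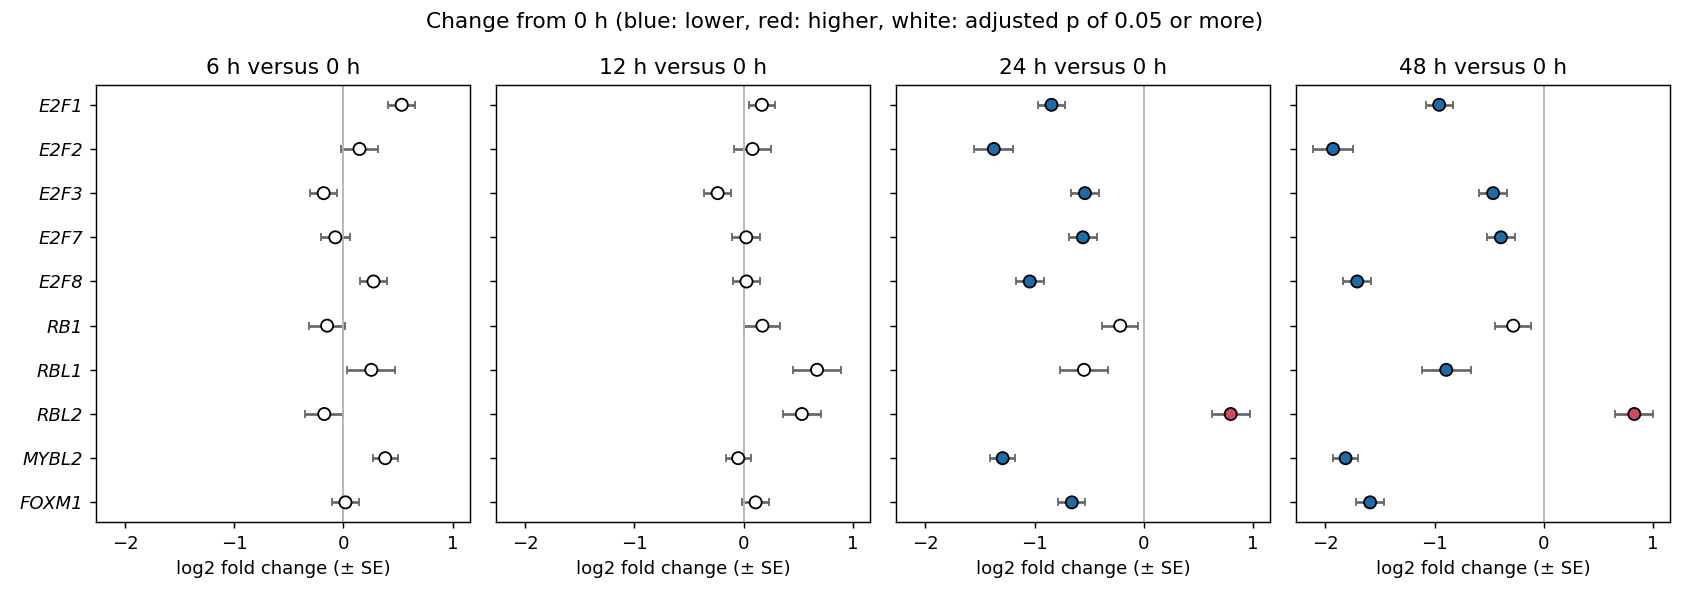
Log2 fold change from 0 h with its SE for each gene, in a panel per time, blue where it fell, red where it rose and white where the adjusted p was 0.05 or more. No marker is filled at 6 or 12 h, 8 are filled at 24 h and 9 at 48 h, *RBL2* being the 1 to the right of 0 among them.

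*MYBL2*, the activator that joins the MuvB core in S phase, had the lowest adjusted p of the 10 at 48 h. Its libraries held 256 and 261 CPM at 0 h, 315 and 358 at 6 h, 245 and 254 at 12 h, 112 and 98.4 at 24 h, with 75.1 and 71.6 at 48 h. Both 6 h libraries were above every other library, and the libraries of 24 h and 48 h were below all earlier ones without overlapping each other. The change was -1.29 ± 0.115 at 24 h (edgeR adjusted p = 0.000101) and -1.82 ± 0.117 at 48 h (edgeR adjusted p = 7.03e-06), and *MYBL2* fell further between 24 h and 48 h, by 0.52 on the log2 scale (edgeR adjusted p = 0.0366). The 24 and 48 h differences from 0 h kept their direction and passed the test in all 20 alternative analyses.

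*FOXM1*, the forkhead factor that drives mitotic genes in G2, followed a later course. It stood at 260 and 255 CPM at 0 h, 245 and 276 at 6 h, 287 and 268 at 12 h, 174 and 152 at 24 h, with 91.8 and 79.0 at 48 h. The libraries of the first 3 times were intermingled or close, those of 24 h were lower and those of 48 h lower again. *FOXM1* fell by 0.66 ± 0.123 at 24 h (edgeR adjusted p = 0.00454) and fell by 1.59 ± 0.126 at 48 h (edgeR adjusted p = 1.73e-05). The 24 h call was lost without the second 24 h library (-0.57, adjusted p = 0.0711), while the 48 h call held in all 20 alternatives.

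In the step from 24 to 48 h *FOXM1* fell by 0.93 ± 0.124 (edgeR adjusted p = 0.00525), *E2F8* fell by 0.67 ± 0.129 (edgeR adjusted p = 0.0233) and *MYBL2* fell as given above, so that 3 members of 10 passed, against 3.18% of all genes (1.28% lower and 1.89% higher). The differences of the other 7 members, not tested against those 3, were between -0.56 (*E2F2*, edgeR adjusted p = 0.147) and 0.16 (*E2F7*). This count of 3 rests on few libraries: it became 0 without the first 24 h library or without either 48 h library, 1 without any 1 of the 0 h, 6 h or second 24 h libraries, and 5 without the first or the second 12 h library (21.4% and 20.9% of all genes then passed). Without both, 5 passed as well, *E2F2* and *RBL1* being added (22.8% of all genes). In the preceding interval, 24 h against 12 h, 7 members fell and none rose (7.58% of all genes passed, 4.15% lower and 3.43% higher). They were *E2F1* (-1.01 ± 0.124), *E2F2* (-1.45 ± 0.178), *E2F7* (-0.58 ± 0.131), *E2F8* (-1.07 ± 0.128), *RBL1* (-1.22 ± 0.222), *MYBL2* (-1.24 ± 0.115) and *FOXM1* (-0.77 ± 0.124), with edgeR adjusted p-values from 0.000847 to 0.0252. In edgeR on these 4 libraries alone none passed, nor did any other of the genes tested. DESeq2 on the same libraries called 6 of the members (1.57% of all genes). Without the first or the second 24 h library 4 of them passed (0.929% and 0.761% of all genes). Without the first 12 h library 8 members passed (17.3% of all genes), *RBL2* being higher (0.56 ± 0.121) and *RBL1* lower by a smaller margin (-0.80 ± 0.125). Without the second 12 h library 9 passed, all lower (44.5% of all genes, 20.0% lower), with *RBL1* at -1.54 ± 0.12 and *RB1* at -0.65 ± 0.0863.

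Among the activator E2Fs, *E2F1*, which is both an S-phase inducer and a target of its own family, was at 85.9 and 87.7 CPM at 0 h, 122 and 129 at 6 h, 92.2 and 103 at 12 h, 46.1 and 50.5 at 24 h, with 48.7 and 40.6 at 48 h. The 6 h libraries were the highest of the series and the 4 libraries of 24 and 48 h the lowest, with 24 and 48 h overlapping. *E2F1* fell by 0.85 ± 0.124 at 24 h (edgeR adjusted p = 0.00131) and fell by 0.96 ± 0.124 at 48 h (edgeR adjusted p = 0.000272). Both calls held in all 20 alternatives.

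*E2F2* had the lowest TPM of the 10 at 48 h. Its log2 changes at 24 and 48 h lay within 1 SE of those of *MYBL2*. Its levels were 18.9 and 22.6 CPM at 0 h, 21.3 and 24.7 at 6 h, 24.1 and 19.8 at 12 h, 8.59 and 7.43 at 24 h, with 5.02 and 5.87 at 48 h. The libraries of 0, 6 and 12 h overlapped, and those of 24 and 48 h lay below them and apart from each other. *E2F2* fell by 1.37 ± 0.178 at 24 h (edgeR adjusted p = 0.00067) and fell by 1.93 ± 0.182 at 48 h (edgeR adjusted p = 4.44e-05), and in all 20 alternatives as well.

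*E2F3*, whose product is the third classical activator, moved least within this class. Its libraries held 99.5 and 104 CPM at 0 h, 92.4 and 86.9 at 6 h, 93.0 and 79.4 at 12 h, 75.1 and 64.8 at 24 h, with 69.8 and 77.4 at 48 h. It fell by 0.54 ± 0.125 at 24 h (edgeR adjusted p = 0.0128) and fell by 0.47 ± 0.125 at 48 h (edgeR adjusted p = 0.0168). Neither call was firm. With limma on log2(TPM + 1) the adjusted p was 0.0592 at 24 h and 0.0652 at 48 h. At 24 h the call was lost without the first 0 h library (0.0664), the second 0 h library (0.088) or the second 24 h library (0.139). At 48 h it was lost without the first or second 0 h library (0.0682 and 0.0989) or the first or second 48 h library (0.137 and 0.0515).

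*E2F8*, an atypical E2F that represses without a DP partner, stood at 41.9 and 42.1 CPM at 0 h, 50.4 and 51.2 at 6 h, 46.6 and 38.9 at 12 h, 19.7 and 21.0 at 24 h, with 12.9 and 12.8 at 48 h. The 12 h libraries straddled the 0 h level, and each of the last 2 times was below all libraries before it. *E2F8* fell by 1.04 ± 0.128 at 24 h (edgeR adjusted p = 0.000512) and fell by 1.71 ± 0.131 at 48 h (edgeR adjusted p = 1.49e-05), and passed at both times in all 20 alternatives. Its close relative *E2F7* was at 150 and 150 CPM at 0 h, 148 and 136 at 6 h, 173 and 132 at 12 h, 104 and 99.5 at 24 h, with 114 and 114 at 48 h. *E2F7* fell by 0.56 ± 0.131 at 24 h (edgeR adjusted p = 0.0136) and fell by 0.39 ± 0.131 at 48 h (edgeR adjusted p = 0.0419). The 24 h call was lost with limma on log2(TPM + 1) (0.0734) and without any 1 of the 0 h or 24 h libraries (0.0754 to 0.114). The 48 h call was lost in 12 of 20 alternatives, among them limma on log2(TPM + 1) (0.155), size factors of the DESeq2 type (0.0579) and every fit that left out 1 library of 0, 6, 24 or 48 h (0.0652 to 0.165).

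The summed TPM of the 3 activators was 185 and 196 at 0 h, 233 and 230 at 6 h, 216 and 202 at 12 h, 118 and 122 at 24 h, with 114 in both libraries at 48 h. The sum of the 2 atypical E2Fs went from 115 and 117 TPM at 0 h to 74.9 and 77.8 at 48 h. Activator mRNA per atypical mRNA was 1.61 and 1.67 at 0 h, 1.87 and 2.03 at 6 h, 1.46 and 1.88 at 12 h, 1.56 and 1.56 at 24 h, with 1.53 and 1.47 at 48 h. The ratio was thus above every 0 h value in both 6 h libraries and below them in the libraries of 24 and 48 h. The 12 h libraries lay on either side of the 0 h values, the first being the lowest of the series. No test was run on this ratio.

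The pocket proteins did not share a direction. *RBL2*, the pocket protein of quiescent cells, was the 1 member that rose. It stood at 32.1 and 28.0 CPM at 0 h, 28.2 and 25.0 at 6 h, 51.9 and 35.1 at 12 h, 52.8 and 51.6 at 24 h, with 52.6 and 54.1 at 48 h. The 4 libraries of 24 and 48 h lay close together above both 0 h libraries, and the 12 h libraries were far apart. *RBL2* rose by 0.80 ± 0.175 at 24 h (edgeR adjusted p = 0.0101) and by 0.83 ± 0.175 at 48 h (edgeR adjusted p = 0.00512). Without the second 0 h library the adjusted p was 0.0982 at 24 h and 0.0557 at 48 h, and without the first or second 24 h library the 24 h value was 0.0664 or 0.063. Part of its exonic sequence is shared with *AKTIP*, as given above.

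*RBL1*, the pocket protein that is itself an E2F target and is most abundant in cycling cells, was at 55.1 and 47.5 CPM at 0 h, 64.7 and 57.6 at 6 h, 103 and 60.6 at 12 h, 39.0 and 31.1 at 24 h, with 28.3 and 26.8 at 48 h. Both 6 h libraries were above both 0 h libraries and all 4 libraries of 24 and 48 h were below them. The change was -0.55 ± 0.22 at 24 h (edgeR adjusted p = 0.114), and *RBL1* fell by 0.89 ± 0.222 at 48 h (edgeR adjusted p = 0.0116). The 12 h libraries lay 0.76 apart for this gene on the log2 scale. Without the first of them the 24 h adjusted p was 0.000122, without the other 12 h library 8.09e-05 and without both 0.000241. The 48 h call was lost without the first 0 h library (0.0823) or the first or second 48 h library (0.0627 and 0.0807).

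*RB1*, the retinoblastoma tumour suppressor, was at 156 and 153 CPM at 0 h, 141 and 137 at 6 h, 209 and 139 at 12 h, 139 and 127 at 24 h, with 129 and 126 at 48 h. Apart from the first 12 h library, all later libraries were below both 0 h libraries. The changes were -0.22 ± 0.164 at 24 h (edgeR adjusted p = 0.414) and -0.28 ± 0.165 at 48 h (edgeR adjusted p = 0.223), with an interval of 2 SE at 48 h from -0.61 to 0.05. Without both 12 h libraries the same differences had adjusted p = 0.0169 at 24 h and 0.00182 at 48 h in edgeR, where 43.2% and 54.3% of all genes were called. Without the first 12 h library alone they were 0.0178 and 0.00172, and without the second alone 0.0175 and 0.00161.

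As shares of pocket protein mRNA on the TPM scale, *RBL2* made up 11.7% and 10.9% at 0 h, compared with 22.7% and 23.7% at 48 h, and *RBL1* went from 24.4% and 22.5% to 14.9% and 14.3%. *RB1* kept between 57.1% and 66.7% in all 10 libraries. The ratio of *RBL1* to *RBL2* was 2.09 and 2.07 at 0 h, 2.80 and 2.81 at 6 h, 2.42 and 2.11 at 12 h, 0.903 and 0.735 at 24 h, with 0.658 and 0.605 at 48 h. The ratio was above 2 in all 6 libraries up to 12 h and below 1 in the 4 later ones, the first 12 h library included, while the summed pocket protein mRNA was 112 to 129 TPM in all libraries other than that one (217). The ratio of *MYBL2* to *FOXM1* was 1.74 and 1.81 at 0 h, 2.28 and 2.29 at 6 h, 1.51 and 1.68 at 12 h, 1.15 and 1.15 at 24 h, with 1.45 and 1.61 at 48 h. It was lowest at 24 h, when *MYBL2* had fallen further than *FOXM1*. These ratios are descriptions within a library and carry no test.

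**Figure D3:**
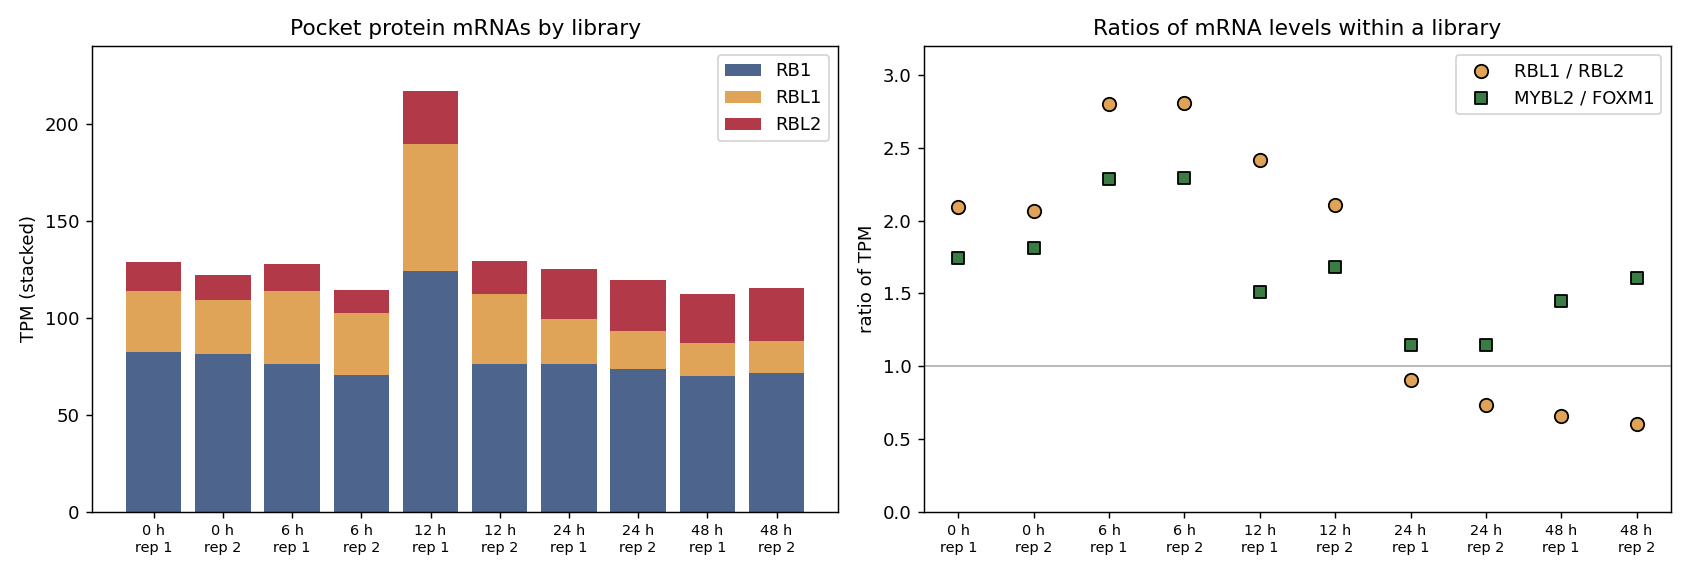
The left panel stacks the TPM of *RB1*, *RBL1* and *RBL2* for each library, ordered by time and replicate, and the right panel shows the ratios of *RBL1* to *RBL2* and of *MYBL2* to *FOXM1* in TPM, with a line at 1. The ratio of *RBL1* to *RBL2* lies above 2 in the 6 libraries of 0, 6 and 12 h and below 1 in the 4 libraries of 24 and 48 h.

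At the earliest time the members stood on both sides of the sham level. Both 6 h libraries were below both 0 h libraries for *E2F3* (-0.18 ± 0.124), *RB1* (-0.15 ± 0.164) and *E2F7* (-0.07 ± 0.130). They were above both for *RBL1* (0.26 ± 0.219). At 6 h, *E2F1* was 0.53 ± 0.123 above 0 h on the log2 scale (edgeR adjusted p = 0.0505), *MYBL2* 0.38 ± 0.113 (edgeR adjusted p = 0.122) and *E2F8* 0.28 ± 0.126 (edgeR adjusted p = 0.331), and in all 3 both 6 h libraries exceeded both 0 h libraries. None of these passed in edgeR with all libraries. There 2 members had an unadjusted p under 0.05, as did 2463 of all 15727 genes. DESeq2 on all libraries called 2 members, *E2F1* and *MYBL2* (3.97% of all genes called), and limma on log2(TPM + 1) called 0 (1.87%). When both 12 h libraries were left out, edgeR called *E2F1* (9.99e-05), *MYBL2* (0.00115) and *E2F8* (0.043) higher, with 20.7% of all genes called, 10.4% higher. Leaving out the first 12 h library alone gave adjusted p-values of 4.26e-05, 0.00072 and 0.0417 for the same 3 genes, and leaving out the second alone gave 3.35e-05, 0.000617 and 0.0413. *FOXM1* at 6 h was 0.02 ± 0.123 above 0 h, with an interval of 2 SE from -0.23 to 0.26.

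Set against 6 h instead of 0 h, the 48 h libraries showed 6 members that had fallen and 1 that had risen (33.2% of all genes called, 17.0% lower and 16.2% higher). *MYBL2* was lower by 4.59-fold (-2.20 ± 0.118), *E2F2* by 4.22-fold (-2.08 ± 0.183), *E2F8* by 3.96-fold (-1.98 ± 0.132), *FOXM1* by 3.05-fold (-1.61 ± 0.126), *E2F1* by 2.81-fold (-1.49 ± 0.125) and *RBL1* by 2.22-fold (-1.15 ± 0.223), with edgeR adjusted p-values from 2.79e-06 to 0.003. *RBL2* was 2.00-fold higher (edgeR adjusted p = 0.0017). This comparison and that with 0 h share the 48 h libraries.

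At 12 h, edgeR with all libraries called none of the members. An unadjusted p under 0.05 was found for 3842 of all 15727 genes and for 2 of the 10 members. These were *RBL1*, at 0.67 ± 0.220 above 0 h (edgeR adjusted p = 0.0968), and *RBL2*, at 0.53 ± 0.175 above 0 h (edgeR adjusted p = 0.0974). DESeq2 on all libraries called both (8.53% of all genes called), and limma on log2(TPM + 1) called 0 (5.57%). Their values rest on the first 12 h library: without it they were 0.25 for *RBL1* and 0.23 for *RBL2*, and without the second 12 h library 1.00 (adjusted p = 1.02e-07) and 0.78 (adjusted p = 2.94e-06). *RB1* was called higher (0.43, adjusted p = 0.000167) without the second 12 h library, making 3 of 10 members where 44.9% of all genes were called. *E2F3* was called lower (-0.35, adjusted p = 0.0189) without the first, as the 1 member called where 16.9% of all genes were. Between 6 and 12 h edgeR called 0 members (0.725% of all genes called, 0.502% higher and 0.223% lower). An unadjusted p under 0.05 was found for 3 members and for 3650 of all 15727 genes. DESeq2 on all libraries called 2, *MYBL2* lower and *RBL2* higher (5.31% of all genes called), and limma on log2(TPM + 1) called 0 (0.134%). Without the first 12 h library edgeR called the same 2 genes (5.40% of all genes), and without the second it called 6 members (46.7% of all genes).

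Genes that work with the members were grouped by role, and the groups were chosen with earlier results of these data known. The counts of these groups are to be read against the 10.2% of all genes that fell at 24 h and the 16.3% that fell at 48 h. Of 5 DP partners and other E2Fs tested, 2 fell at 24 h and 2 at 48 h. *TFDP1*, the main dimer partner of the E2Fs, went from 308 and 307 CPM at 0 h to 165 and 165 at 24 h, with 139 and 134 at 48 h (-1.17 ± 0.123, edgeR adjusted p = 8.42e-05), and *E2F4*, the repressor E2F of the DREAM complex, fell by 0.74 ± 0.131 at 48 h (edgeR adjusted p = 0.0018). *E2F5*, which also pairs with the pocket proteins RBL1 and RBL2, differed by 0.43 at 48 h and did not pass. Of the 5 genes of the MuvB core, 2 fell at 48 h: *LIN9* (-1.19 ± 0.139, edgeR adjusted p = 0.000152) and *LIN54*, the DNA-binding subunit (-0.74 ± 0.174, edgeR adjusted p = 0.00889). The histone-binding subunit *RBBP4* differed by -0.17 and *LIN52* by -0.16, and *LIN37* had between 15 and 64 counts per library.

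Of the genes upstream of the pocket proteins, 8 of 9 G1 cyclins and kinases were tested, since *CCND2* had 0 counts in all libraries (which allows up to 3 counts in each). At 48 h 6 fell: *CDC25A*, the phosphatase that activates CDK2 (-1.84 ± 0.168, edgeR adjusted p = 3.87e-05), *CCNE2* (-1.48 ± 0.153), *CDK4* (-1.13 ± 0.181), *CDK2* (-1.13 ± 0.169), *CCNE1* (-1.03) and *CDK6* (-0.81 ± 0.232, edgeR adjusted p = 0.0231). *CCND1*, the D-type cyclin that starts pocket protein phosphorylation, was at 707 CPM at 0 h and 735 at 48 h (means of 2 libraries, a difference of 0.06), and *CCND3* differed by -0.16. Neither passed. Among the CDK inhibitors, 5 of 7 were tested. At 6, 24 and 48 h 1 rose each time and 0 fell (1.24%, 9.73% and 16.0% of all genes were higher). The median change of the 5 at 48 h was -0.143, in a range from -0.43 to 0.532. *CDKN1C*, *CDKN2C* and *CDKN2D* did not pass at these times. Their means were 3.78, 76.0 and 31.1 CPM at 0 h, with 3.38, 68.8 and 23.1 at 48 h. *CDKN1A* (p21) rose at 6 h, from 49.6 and 56.3 CPM to 118 and 124 (1.19 ± 0.219, edgeR adjusted p = 0.0192), and was at 51.8 and 49.7 CPM at 48 h. *CDKN1B* (p27) was at 54.1 and 58.1 CPM at 0 h and rose at 24 h (0.55 ± 0.158, edgeR adjusted p = 0.0331) and at 48 h (0.53 ± 0.158, edgeR adjusted p = 0.0271).

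Of 6 ubiquitin ligase adaptors that control the stability of E2Fs or of cell-cycle proteins, 4 fell at 24 h and 5 at 48 h. They included *CCNF* (-1.38 ± 0.112, edgeR adjusted p = 2.02e-05) and *FBXO5* (EMI1, an inhibitor of the anaphase-promoting complex that is itself an E2F target; -1.33 ± 0.119, edgeR adjusted p = 3.41e-05) at 48 h. Of 8 chromatin cofactors of the pocket proteins, 3 fell at 48 h (37.5%, against 16.3% of all genes): *DNMT1* (-1.12), *SUV39H1*, a histone H3K9 methyltransferase (-1.38 ± 0.157, edgeR adjusted p = 0.000132), and *HDAC2* (-0.33). The median of the 8 was 0.0192.

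Textbook targets of the network were counted in 2 lists, 58 genes of the G1/S wave, which E2Fs control, and 61 genes of the G2/M wave, which MYBL2 and FOXM1 control with the MuvB core. The lists share *CCNE1*, *CCNE2*, *CDC25A* and *CDC20* with the lists above. Both were chosen with earlier results of these data known, so their counts are a description and not independent support. Of the G1/S genes, 55 fell at 24 h and 58 at 48 h, and of the G2/M genes 27 at 24 h and 60 at 48 h, with none higher at these times. The median change at 24 h was -0.961 for G1/S and -0.469 for G2/M genes, and at 48 h -1.31 and -1.39. In the interval from 24 to 48 h, 7 G1/S genes fell (median -0.335) and 46 G2/M genes fell (median -0.856), against 1.28% of all genes lower and a median of -0.0054 over all genes. *RRM2*, the ribonucleotide reductase subunit of S phase, went from 543 and 508 CPM at 0 h to 213 and 194 at 24 h, with 118 and 112 at 48 h (-2.19 ± 0.112, edgeR adjusted p = 3.46e-06). *CCNB1*, the mitotic cyclin, was at 297 and 287 CPM at 0 h, 227 and 226 at 24 h (-0.37 ± 0.0994, edgeR adjusted p = 0.0267) and 94.7 and 102 at 48 h (-1.57 ± 0.102, edgeR adjusted p = 7.54e-06). The other leading genes of the 2 lists at 48 h were *EXO1* (-1.85 ± 0.122) and *CCNA2* (-1.82 ± 0.108). The 1 G2/M gene that did not pass at 48 h was *NUSAP1*, with 20 to 84 counts per library.

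**Figure D4:**
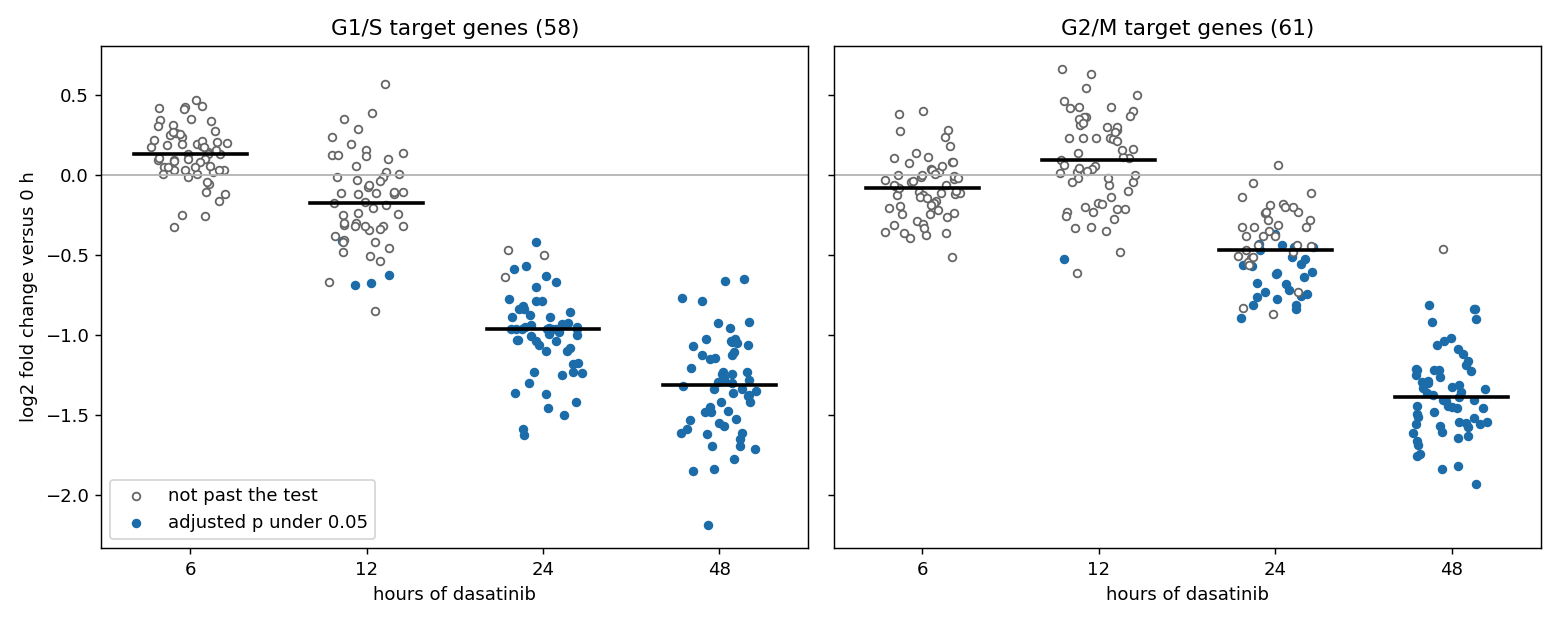
Log2 fold change from 0 h for each of 58 G1/S target genes (left) and 61 G2/M target genes (right) at 6, 12, 24 and 48 h, with filled points for an adjusted p under 0.05. At 24 h 55 G1/S and 27 G2/M points are filled, all below 0, and at 48 h 58 and 60.

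The count of G2/M genes at 24 h depended on the libraries, with 54 called without both 12 h libraries (43.2% of all genes then passed), 54 without either one, and between 9 and 12 without any 1 of the 0 h or 24 h libraries. At 6 h edgeR called 0 genes in both lists, against 2.73% of all genes. At an unadjusted p under 0.05, 8 G1/S genes were higher and 2 lower, and 1 G2/M gene was higher and 8 lower. Over all 15727 genes, 1238 were higher and 1225 lower at that unadjusted p. DESeq2 on all libraries called 0 and 2 (3.97% of all genes called), and limma on log2(TPM + 1) called 0 in both (1.87%). Without both 12 h libraries edgeR called 15 G1/S genes, 13 higher and 2 lower, and 16 G2/M genes, 4 higher and 12 lower, where 20.7% of all genes were called. At 12 h, 4 G1/S genes (*CDC6*, *GINS2*, *SLBP* and *CDC25A*) and 1 G2/M gene (*BUB3*) fell. These were 6.9% and 1.64% of the lists, against 3.22% of all genes lower. Without the first 12 h library 12 G1/S genes were called, 1 higher and 11 lower, and 6 G2/M genes, 3 higher and 3 lower (16.9% of all genes called). Without the second, 41 G1/S genes were called, 9 higher and 32 lower, and 42 G2/M genes, 24 higher and 18 lower (44.9% of all genes called). Without any 1 library of the other times no gene of either list was called, other than 1 G1/S gene, lower, without the second 24 h library.

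The letters before the start also differed between the waves. Since the lists hold textbook targets of these factors, such a difference may follow from how the genes were chosen. An E2F word lay in the window of 19 of 49 G1/S genes with an entry (38.776%) and 3 of 51 G2/M genes (5.882%), beside 5.304% of tested genes. The cell-cycle homology region words TTTGAA and TTCGAA, to which LIN54 is known to bind, lay in 5 of 49 G1/S genes (10.204%) and 28 of 51 G2/M genes (54.902%), beside 13.898% of tested genes. The short word CCAAT lay in 29 of 49 G1/S and 43 of 51 G2/M genes (84.314%), beside 40.567% of tested genes. Among the members with an entry, *E2F3* held TTTGAA, and it is visible in lower case in its sequence above.

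Over the 10 libraries, the closest pair of members was *E2F8* and *MYBL2* (Pearson r of log2 CPM 0.987), followed by *E2F2* and *E2F8* (0.985). *RBL2* ran against *MYBL2* (-0.846) and *E2F1* (-0.843), and *RB1* and *RBL2* had an r of -0.0489. Outside the 10, among 10972 genes, the profiles most like *MYBL2* were those of *MCM7* (0.995) and *MCM4* (0.994), subunits of the replicative helicase, and *TIMM50* (0.993). Those most like *FOXM1* were *NCAPD2* (0.995), a condensin subunit, *BIRC5* (survivin, 0.993) and *OSGEP* (0.992). The closest to *E2F8* were *TIMM50* (0.994), *TRIM28* (0.994) and *WDR62* (0.993), to *E2F1* *MPDU1* (0.985), *PASK* (0.984) and *LMF2* (0.984), and to *RBL2* *FMNL2* (0.987), *F2R* (0.986) and *GTF2IP4* (0.979). All points share the same 10 libraries and 5 times, so these values describe likeness of course and carry no test.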

How the data were processed

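MDA-MB-231 RNA was sequenced in 10 libraries (5 times, 2 replicates). Per the labels and the study's methods, the authors used FastQC and MultiQC for quality control, Trim Galore for trimming, STAR 2.5.2b for alignment (hg38) and featureCounts for counting. The deposited raw counts per gene were tested here. The deposited TPM values were used for levels compared between genes, for ratios and for limma. Counts were filtered with filterByExpr, scaled by TMM and fitted in edgeR 4.0.16 (R 4.3.3, robust quasi-likelihood, 1 mean per time, Benjamini-Hochberg within a comparison, threshold 0.05), where the study's methods name DESeq2, which was run as an alternative (1.42.0). The SE is the absolute log2 fold change divided by the root of F. Other alternatives were no low-count filter, other size factors, a replicate block, the 2 groups alone, limma 3.58.1 on log2(TPM + 1) or log2(TPM + 0.1), keeping genes that reached 1 TPM in 2 libraries or all genes above 0, and each library left out. Of these fits, only that of edgeR was tested on simulated data, for 48 h versus 0 h. The members and gene lists were chosen with earlier results of these data known. Genes named besides the members were, for each list, the 2 with the smallest adjusted p at 48 h in each direction, any gene of a list of under 10, and the 3 with the highest Pearson r to 5 members among genes with a mean log2 CPM of at least 2 (prior count 2). *NUSAP1* and the genes called at 12 h were named after their values were seen. The lists of 58 and 61 targets hold textbook genes.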

Additional observations from a re-analysis of the deposited data

How the results depend on the processing

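Over 20 alternatives (19 at 12 h), 884 of 990 member values kept their direction and side of the threshold, 55 passed only in the alternative, 41 no longer passed and 10 changed sign. No member was called at 6 h, 12 h or 12 h versus 6 h in the analysis reported above. In others, at 6 h, 1 member was called with no filter and with size factors of the DESeq2 type, 2 by DESeq2 on all libraries, and 3 by DESeq2 or edgeR on the 2 groups alone and without both 12 h libraries, a choice made after seeing the data. The share of all genes called at 6 h was 2.73% in the reported analysis and 14.0%, 20.5% and 20.7% in those last 3. It was 3.97% with no filter, 2.80% with size factors of the DESeq2 type and 3.97% by DESeq2 on all libraries. At 12 h, 2 were called with no filter and by DESeq2 on all libraries (10.2% and 8.53% of all genes). At 12 h versus 6 h the same settings each called 2 (9.69% and 5.31% of all genes). At 24 h versus 12 h, edgeR on the 2 groups alone called 0 instead of 7, and none of all genes. At 48 h versus 24 h it called 5 instead of 3 (25.4% of all genes), as did the fit without both 12 h libraries (22.8%). Leaving out 1 library gave 0 to 3 members called both for 6 h and for 12 h, 4 to 10 for 24 h and 6 to 10 for 48 h. Between treated times it gave 0 to 6 for 12 h versus 6 h, 4 to 9 for 24 h versus 12 h, 0 to 5 for 48 h versus 24 h and 7 to 9 for 48 h versus 6 h. The highest of these counts came without a 12 h library, where 19.0% to 50.5% of all genes were called; for 12 h versus 6 h the 6 members stood beside 46.7% of all genes. The time left with 1 library is then assumed to vary like the others. Log2 fold changes that changed sign with 1 library left out were those of *FOXM1* at 6 h (-0.0718 to 0.113, below 0 without the second 0 h, at -0.0047, or second 6 h library) and, at 12 h, *E2F2* (-0.060 to 0.21, below 0 without the first 0 h, at -0.052, or first 12 h library), *E2F7* (-0.175 to 0.197), *E2F8* (-0.104 to 0.144) and *RB1* (-0.149 to 0.43), the last 3 below 0 without the first 12 h library. *MYBL2* at 12 h changed sign with limma (0.0544 on log2(TPM + 1) with and without the filter, 0.0545 on log2(TPM + 0.1)). No value with a changed sign passed its test, and the cause was not tested.

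Replicate numbers did not pair the samples: of 10 pairs of times, 1 had a correlation of same-numbered deviations over 0.1 (range -0.0368 to 0.104). With the replicate number as a block, edgeR called 1 member at 12 h (*RBL1*, adjusted p = 0.0473) and 9 instead of 8 at 24 h (*RBL1* added, adjusted p = 0.0414), and 2 instead of 3 at 48 h versus 24 h. The shares of all genes called with the block were 6.55%, 19.5% and 2.93% in these comparisons.

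With 2 libraries a time, a difference has to be large against their spread to pass, and a count of 0 does not show that the members were level. The 12 h comparisons in particular rest on libraries that differ from each other.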
